A study of Rattus norvegicus with 6 samples.

Results

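The genes described here are those of the endothelial connexins Gja1, Gja4, Gja5 and Gjc1 and of the related channel protein pannexin 1, Panx1. They were taken by gene name from the deposited count table, in which all 5 have a single row among 33566 genes. RNA had been sequenced from 6 libraries of primary rat brain microvascular endothelial cells (rBMECs), the cells that line brain capillaries and form the blood–brain barrier. By the labels, cells came from the cerebral cortex of Sprague-Dawley (SD) rats 18 to 22 days of age and were used after 1 passage. The study's methods name the forebrain instead. Of the libraries, 3 were from cells given homocysteine (Hcy), a sulfur amino acid of the methionine cycle, and 3 from cells given vehicle (Veh), which was sterile water. The labels give 100 µM Hcy for 24 h, and the protocol also names a prepared solution of 50 µM, so the dose is given here as labelled. The series' design text calls the libraries biological replicates, and whether the cultures came from separate animals is not given in the sources used here. The comparison asks how Hcy alone changes the transcripts of these endothelial cells.

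Connexins are membrane proteins that assemble into ring-shaped channels, and the rings of neighbouring cells dock to form gap junctions, through which ions and small molecules pass from cell to cell. In the vessel wall they carry calcium and electrical signals along the endothelium and between endothelium and muscle. Arterial endothelium is known for Gja4 (connexin 37) and Gja5 (connexin 40). Gja1 (connexin 43) is the most widespread family member and is also the main connexin of astrocytes. Gjc1 (connexin 45) is known from vascular muscle, the developing endothelium and the conduction tissue of the heart. Pannexin 1 resembles connexins in shape but forms single-membrane channels that release ATP.

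Promoter sequences were at hand for 4 of the 5 genes, and those of the alpha connexins are shown because their transcripts lay at such different levels in the same cells and because factors known to act on Gja1 are described further on. Each window runs 5′ to 3′ on the gene's strand, from 250 bases before the RefSeq start to 50 after it, in build GRCr8. Capitals mark matches on either strand to the AP-1 motif TGANTCA, the GC box GGGCGG and the RBPJ motif TGGGAA, which do not overlap one another here.
Gja1, chr20:36302314-36302613, plus strand: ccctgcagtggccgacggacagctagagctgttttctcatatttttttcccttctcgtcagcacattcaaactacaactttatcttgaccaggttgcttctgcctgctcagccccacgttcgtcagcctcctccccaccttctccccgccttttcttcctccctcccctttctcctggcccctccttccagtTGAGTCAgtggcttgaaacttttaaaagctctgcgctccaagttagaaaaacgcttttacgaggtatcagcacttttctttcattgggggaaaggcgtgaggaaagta
Gja4, chr5:144920275-144920574, minus strand: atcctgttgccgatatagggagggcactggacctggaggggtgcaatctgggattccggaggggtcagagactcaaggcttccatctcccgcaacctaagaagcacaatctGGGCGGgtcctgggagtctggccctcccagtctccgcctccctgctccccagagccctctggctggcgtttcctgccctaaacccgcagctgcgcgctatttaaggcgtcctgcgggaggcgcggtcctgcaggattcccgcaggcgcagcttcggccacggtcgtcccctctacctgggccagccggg
Gja5, chr2:187290977-187291276, plus strand: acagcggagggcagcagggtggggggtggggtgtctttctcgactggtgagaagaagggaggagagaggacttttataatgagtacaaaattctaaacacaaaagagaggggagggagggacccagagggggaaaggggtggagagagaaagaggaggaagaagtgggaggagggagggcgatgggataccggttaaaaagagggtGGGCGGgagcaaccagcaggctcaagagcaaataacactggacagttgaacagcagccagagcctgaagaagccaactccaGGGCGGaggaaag
The Gja1 window held 1 AP-1 match, TGAGTCA, which begins 58 bases before the start. Of all 33469 promoters of the same length, 7.33% held an AP-1 match. The Gja4 window held 1 GC box and the Gja5 window 2, a motif found in 33.1% of all promoters. None of these 3 windows held the RBPJ letters, which are in 25.7% of promoters. Panx1, whose window lies on chromosome 8 of GRCr8, held 1 GC box and 1 RBPJ match. A match is a description of the letters and not of a bound site.

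Libraries held 14024997 to 16764584 reads counted on genes. Levels are given as CPM, that is, counts scaled to the library total with edgeR's TMM factors, and, for comparing genes with each other, as CPM per kilobase of the deposited gene length. Detection was set at 3 counts, equal to 0.178 to 0.215 CPM, a floor that takes in counting error alone. Genes with at least 10 counts over the 6 libraries were tested with edgeR's quasi-likelihood test, 14603 in all. Called genes were those that changed at least 2-fold, a log2 fold change of 1 or more in size, with an adjusted p (Benjamini-Hochberg) no higher than 0.05. In a principal component analysis of 12296 genes, the second component set Veh replicate 3, at 30.4, apart from Veh replicates 1 and 2, at -15.9 and -19. For the connexins, pannexin 1 and the list genes past the adjusted p, calls that change without that library are given with and without it. For each list as a whole, the counts past the adjusted p are given for both fits where they differ.

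The cells carried general endothelial markers, while markers particular to brain endothelium were uneven. Among the endothelial markers, Vwf, Cdh5 and Tie1 stood at 2930, 1960 and 1280 CPM in Hcy and at 2290, 1800 and 1180 CPM in Veh. Of 16 markers listed, 13 were tested, and 0 passed the adjusted p in edgeR, 7 reached an unadjusted p of 0.05 or less, and DESeq2 passed 3, Vwf and Kdr higher and Slc2a1 lower in Hcy. Over all genes these shares were 2.34%, 13.4% and 5.09%. Without Veh replicate 3, edgeR passed 4 of the 13, 2 in each direction, where 6.67% of all genes passed. Of those known for the barrier, the glucose transporter Slc2a1 stood at 497 CPM in Hcy and 621 CPM in Veh, but Mfsd2a was at 3.08 and 4.18 CPM and Slco1a4 at 3.57 and 5.17 CPM (edgeR adjusted p = 0.0536, 0.346 and 0.187, with 0.00421 for Slc2a1 in DESeq2). Cldn5, the claudin of the barrier, had 0 counts, although the study blotted Claudin-5 protein in rBMECs. Why no reads were counted on Cldn5 was not tested. Pecam1 and Abcb1a were not analysed here. Other brain cell types left few reads. The 6 astrocyte markers together reached 0.72 to 1.01 CPM in Hcy and 0.42 to 1.66 CPM in Veh, with Aqp4 at 0 counts, and the 7 microglia markers stayed under 0.90 CPM in all libraries. Oligodendrocyte markers summed to 10.6 to 12.4 CPM in Hcy and 11.3 CPM in each Veh library, neuron markers to 6.85 to 9.77 and 5.22 to 7.30 CPM, and epithelial markers to 2.27 to 2.82 and 2.55 to 2.87 CPM. Fibroblast markers summed to 44.9 to 68.7 CPM in Hcy and 63.5 to 91.2 CPM in Veh, most of it Col1a1. The pericyte and smooth muscle list is described beside Gja1 and Gjc1.

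**Figure D1:**
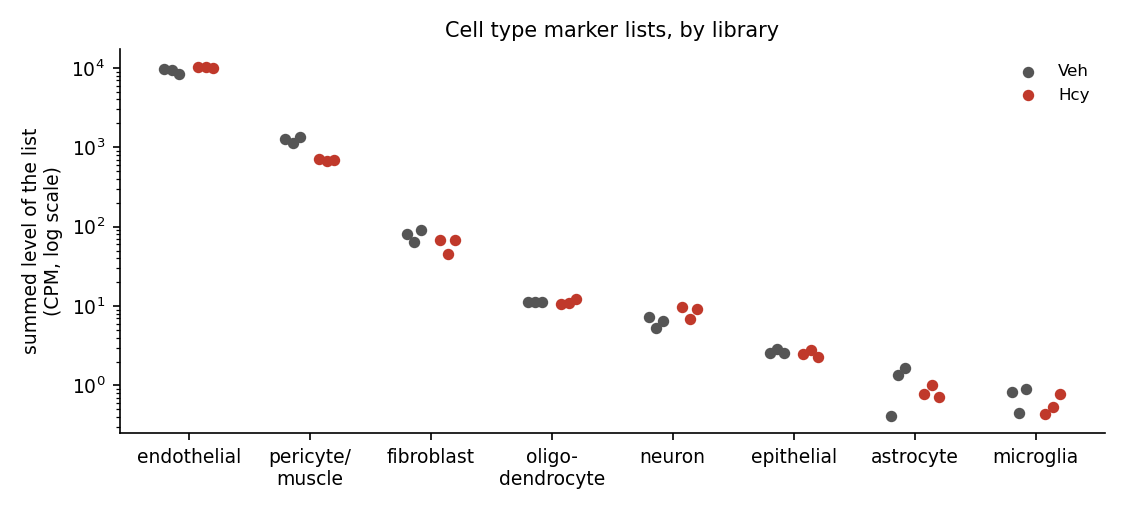
Summed level of each cell type marker list in CPM on a log scale, with 1 point per library in Veh (grey) and Hcy (red). Endothelial markers lie between 8441 and 10354 CPM in all libraries, and the pericyte and smooth muscle sum, most of it Tagln, lies at 1124 to 1352 CPM in Veh and 681 to 708 CPM in Hcy.

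Of the 5 genes, 4 had enough reads to be tested, and none was called between Hcy and Veh. All Hcy libraries had less Gja1 and more Gjc1 than any Veh library, while Panx1 and Gja4 overlapped between the groups. Over all genes 71 of 14603 were called, or 0.486%, with 0.253% higher and 0.233% lower in Hcy. The adjusted p alone was passed by 341 genes, or 2.34%, with 1.32% higher and 1.01% lower. With edgeR, 0 of the 4 passed the adjusted p, and 2, Gja1 and Gjc1, had an unadjusted p of at most 0.05, as had 13.4% of all genes tested. DESeq2 also called 0, with 1 of the 4, Gjc1, past the adjusted p alone, where it called 0.782% and passed 5.09% of the 12024 genes to which it gave an adjusted p. Groups without overlap were found for 20.1% of all genes tested, with 10.8% higher and 9.27% lower in Hcy.

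Per kilobase the order of levels was Gja1, Gjc1, Panx1, Gja4 and Gja5, and it was the same in all 6 libraries. Gja1 lay at 36.0 to 47.9 CPM per kilobase and Gjc1 at 4.76 to 7.95, so that Gja1 was 6.77-fold more abundant by their means. Gjc1 in turn was 3.62-fold above Panx1, which lay at 1.39 to 2.22 CPM per kilobase. Panx1 and Gja4, at 1.02 to 1.69, overlapped in range, although Panx1 was the higher in each library. Of all genes tested, 85.2% had a level per kilobase at or below that of Gja1, 49.1% for Gjc1, 28.6% for Panx1 and 25.9% for Gja4.

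**Figure D2:**
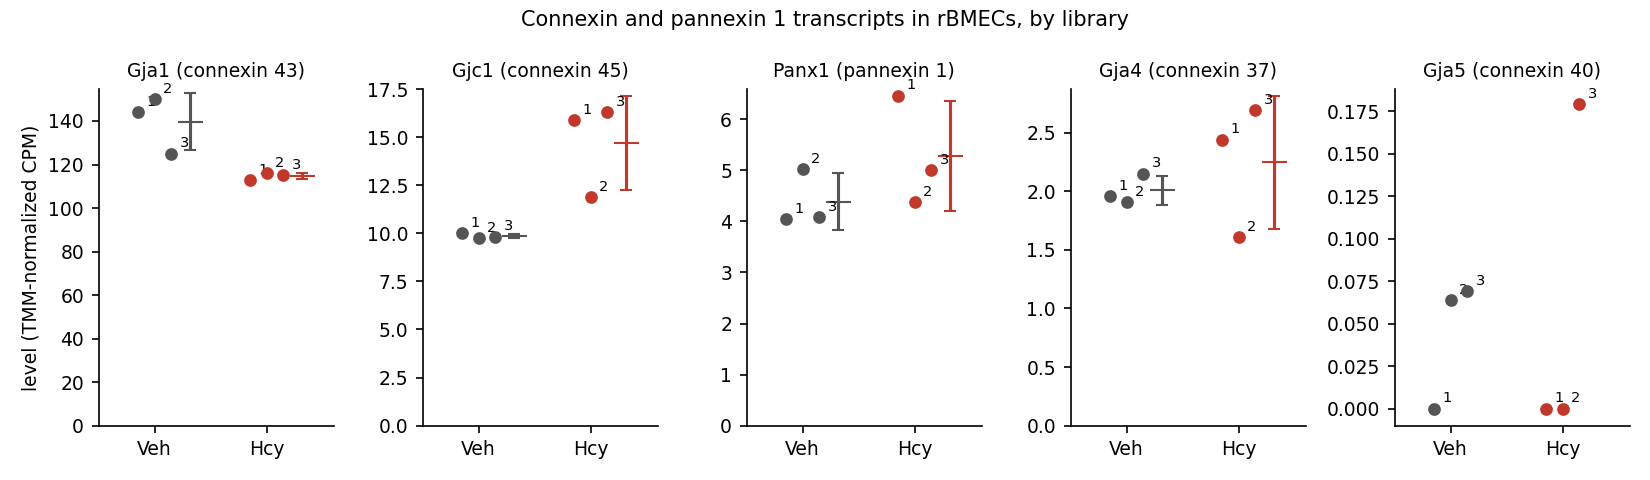
Level of each gene in TMM-normalized CPM, with 1 numbered point per library (replicate number) and the group mean ± SD beside the points, except for Gja5, whose axis spans less than the level of 3 counts. The Hcy points of Gja1, at 113 to 116 CPM, lie below the Veh points, and those of Gjc1, at 11.9 to 16.3 CPM, lie above them.

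Gja1, which encodes connexin 43, was by far the most abundant connexin of these cells. It had 1569, 1725 and 1933 reads in Hcy replicates 1 to 3 and 2423, 2349 and 1801 reads in Veh replicates 1 to 3. These counts correspond to 113, 116 and 115 CPM in Hcy and 144, 150 and 125 CPM in Veh. The Hcy libraries lay close together and under all Veh libraries, and the lowest Veh value was that of Veh replicate 3. The means were 115 ± 1.72 CPM in Hcy and 139 ± 13.1 CPM in Veh (mean ± SD, 3 libraries each). The log2 fold change was -0.28 (standard error 0.08, 95% interval -0.47 to -0.09), or 17.8% lower in Hcy, and did not pass the test (edgeR adjusted p = 0.152). Without Veh replicate 3 it was -0.36 and passed (edgeR adjusted p = 0.00585), in a fit in which 957 of 14352 genes, or 6.67%, passed. With any other library left out the adjusted p was 0.344 to 0.403. In bulk RNA, fewer cells that carry a transcript and less of it per cell cannot be told apart. In the deposited positions, whose build the table does not name, Gja1 lies on the plus strand of chromosome 20 from 37876650 to 37889089 and overlaps no other listed gene.

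Of the pericyte and smooth muscle list, 3 genes of the contractile apparatus fell in Hcy, where Gja1 was also lower. Tagln, the actin-binding protein transgelin, fell from 1070 ± 91.4 CPM in Veh to 582 ± 9.44 CPM in Hcy (mean ± SD, 3 libraries each, log2 fold change -0.88, edgeR adjusted p = 0.000801). Cnn1 (calponin 1) fell by 1.39 and Acta2 (smooth muscle actin) by 0.64 on the log2 scale, with adjusted p of 0.00177 and 0.0248 from edgeR's test. Cnn1 was the 1 gene of the list that was called, where 0.486% of all genes were. Acta2 did not pass without any 1 of the Hcy libraries or without Veh replicate 1, with adjusted p of 0.0816 to 0.146. Of the 11 genes of the list, these 3 passed the adjusted p, as did 2.34% of all genes, and 8 did not, 6 of the 11 having a log2 fold change above 0. The median of that list was 0.44, opposite in sign to the 3 that fell. Myh11, the smooth muscle myosin, stood at 1.20 CPM in Hcy and 1.23 CPM in Veh (log2 fold change -0.04, edgeR adjusted p = 0.981). The pericyte markers Pdgfrb and Notch3 stood at 2.72 and 0.84 CPM in Hcy and at 1.64 and 0.61 CPM in Veh, and Rgs5, Cspg4, Kcnj8, Abcc9 and Des were each under 1 CPM in both groups. The astrocyte connexin Gjb6 had 0 counts. The part of other cells in the Gja1 difference was not tested.

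Gjc1, which encodes connexin 45, was second in abundance and differed in the opposite direction. It had 222, 177 and 273 reads in Hcy replicates 1 to 3 and 169, 153 and 142 reads in Veh replicates 1 to 3. Its levels were 15.9, 11.9 and 16.3 CPM in Hcy and 10.0, 9.75 and 9.83 CPM in Veh. All Hcy libraries were above all Veh libraries, which lay close together, and Hcy replicate 2 was the closest to them. The means were 14.7 ± 2.45 CPM in Hcy and 9.87 ± 0.146 CPM in Veh (mean ± SD, 3 libraries each), a 1.49-fold difference. The log2 fold change of 0.58 (standard error 0.14, 95% interval 0.25 to 0.90) did not pass the adjusted p (0.0925 in edgeR). DESeq2 on the same counts gave 0.58 with an adjusted p of 0.0323, still under the fold threshold. Over the fits with 1 library left out the log2 fold change lay between 0.49 and 0.71 and the adjusted p from edgeR's test between 0.0606 and 0.343. In the pericyte and smooth muscle list, Cspg4, a pericyte proteoglycan, had 16, 9 and 9 reads in Hcy and 5, 3 and 3 in Veh, and Rgs5, a pericyte marker, had 7, 9 and 5 in Hcy and 4, 4 and 1 in Veh. Both were higher in Hcy without overlap, as Gjc1 was, and neither passed the test (edgeR adjusted p = 0.188 and 0.464). Their Veh reads were near the floor of 3 counts. Of the 11 genes of the list, 2 were higher and 4 lower in Hcy without overlap, where 10.8% and 9.27% of all genes were. Kcnj8, another pericyte marker, was lower in Hcy without overlap, at 5, 6 and 4 reads against 7, 13 and 11 (edgeR adjusted p = 0.46), and Pdgfrb, Abcc9, Notch3 and Des overlapped between the groups. Their part in the Gjc1 difference was not tested. Gjc1 is listed on the minus strand of chromosome 10 from 90781402 to 90912287, and the 1 gene it overlaps, a pseudogene, had 0 counts.

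**Figure D3:**
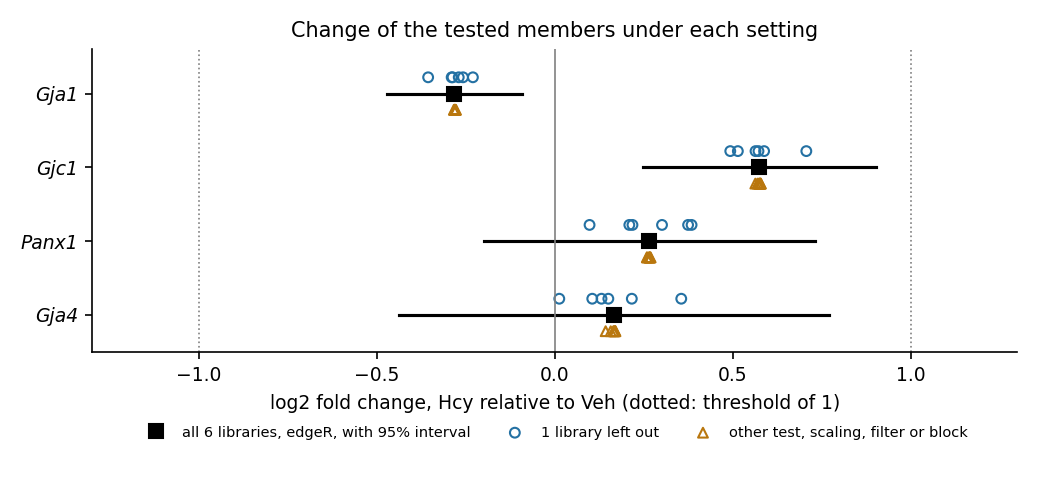
Log2 fold change of Hcy relative to Veh for the 4 tested genes, with the edgeR estimate from all libraries and its 95% interval (black), the estimates with 1 library left out (blue circles) and those of the other settings (orange triangles). Gja1 stays between -0.36 and -0.23 and Gjc1 between 0.49 and 0.71, and no estimate reaches the dotted threshold of 1.

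The same Gja1 and Gjc1 values, neither of which passed the test, can be read as shares of the connexin pool. Of the 4 connexins per kilobase, Gja1 made up 79.5%, 84.5% and 79.2% in Hcy replicates 1 to 3 and 88.2%, 88.9% and 86.6% in Veh replicates 1 to 3. The shares did not overlap, with a mean of 81 ± 2.97% (SD, n = 3) in Hcy and 87.9 ± 1.18% (SD, n = 3) in Veh. The share of Gjc1 was 17.2%, 13.2% and 17.1% in Hcy and 9.39%, 8.84% and 10.4% in Veh, 6.27 percentage points higher by the means. For Gja1 and Gjc1 the two-sided exact permutation test gave p = 0.1, which is the smallest p that 3 against 3 libraries allow. These shares make up nearly all of the same pool. The levels of both genes already differed without overlap in opposite directions, so the test adds no support beyond them. As a ratio, Gja1 was 4.63, 6.39 and 4.64 times as abundant as Gjc1 per kilobase in Hcy replicates 1 to 3 and 9.39, 10.1 and 8.31 times in Veh replicates 1 to 3. The share of Gja4 was 2.31% to 3.63% in Hcy and 2.24% to 2.94% in Veh and overlapped (exact permutation p = 0.3). The summed level of the 4 connexins was 45.3 ± 1.36 CPM per kilobase (SD, n = 3) in Hcy and 50.7 ± 4.1 (SD, n = 3) in Veh, with Veh replicate 3, at 46, within the range of the Hcy libraries (exact permutation p = 0.2).

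**Figure D4:**
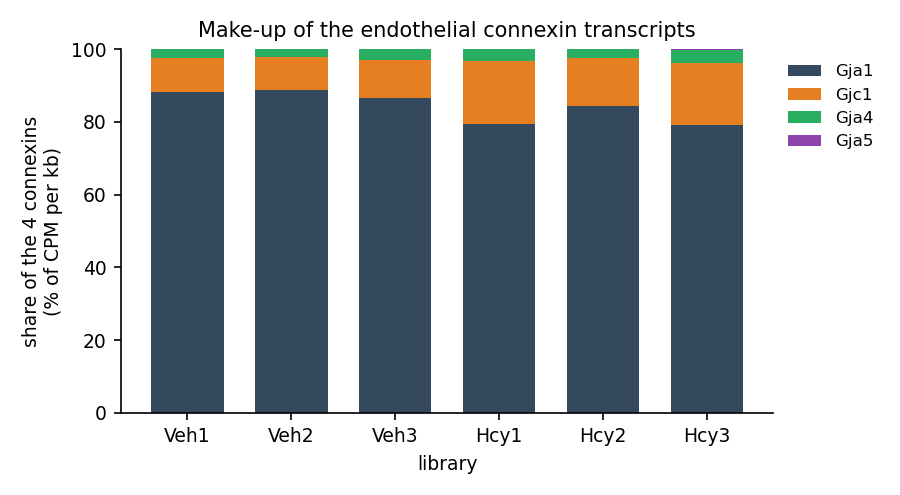
Share of Gja1, Gjc1, Gja4 and Gja5 in the summed CPM per kilobase of these 4 connexins, with 1 bar per library. Gja1 takes 86.6% to 88.9% of the Veh bars and 79.2% to 84.5% of the Hcy bars, and the Gja5 share is too small to see.

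Panx1, the ATP-releasing channel, had 90, 65 and 84 reads in Hcy replicates 1 to 3 and 68, 79 and 59 reads in Veh replicates 1 to 3. Its levels were 6.46, 4.37 and 5.01 CPM in Hcy and 4.04, 5.03 and 4.08 CPM in Veh. Hcy replicate 1 was the highest library, and the other two Hcy libraries lay within the Veh range. The log2 fold change of 0.27 (standard error 0.21, 95% interval -0.20 to 0.73) was within the spread between libraries (edgeR adjusted p = 0.659). With 1 library left out it ranged from 0.10, without Hcy replicate 1, to 0.38, without Hcy replicate 2 (edgeR adjusted p = 0.923 and 0.615). Panx1 is listed on the minus strand of chromosome 8 from 13566739 to 13606040 and overlaps no other listed gene.

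Gja4, which encodes connexin 37 of arterial endothelium, was low in these capillary-derived cells. It had 34, 24 and 45 reads in Hcy replicates 1 to 3 and 33, 30 and 31 reads in Veh replicates 1 to 3, or 2.44, 1.61 and 2.69 CPM against 1.96, 1.91 and 2.15 CPM. The Hcy libraries spread wider than the Veh libraries and lay on both sides of them. The log2 fold change was 0.17 (standard error 0.27, 95% interval -0.44 to 0.77, edgeR adjusted p = 0.862). It was 0.01 without Hcy replicate 3 and 0.36 without Hcy replicate 2 (edgeR adjusted p = 0.996 and 0.721). Gja4 is listed on the minus strand of chromosome 5 from 145374690 to 145377221.

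Gja5, which encodes connexin 40, was not detectable above the floor. It had 0, 0 and 3 reads in Hcy replicates 1 to 3 and 0, 1 and 1 reads in Veh replicates 1 to 3, 5 reads in all. No library exceeded 3 counts. The sum was under the minimum of 10 counts, so Gja5 was not tested and no fold is given. It is listed on the plus strand of chromosome 2 from 199162745 to 199184939. Other connexin and pannexin genes were just as sparse, with 9 of 16 at 0 counts in all libraries and 7 under the count minimum. Gjb2, a connexin of epithelia, reached 6 reads in Hcy replicate 3 and 2 in Veh replicate 1 and was at 0 in the others.

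For each tested gene, the 3 protein-coding genes most like it were those with the highest Pearson r of log2 CPM over the 6 libraries, among 11035 genes with a mean of at least 1 CPM. The values are descriptions of 6 libraries that also differ in depth, and each is picked as the highest of that many. For Gja1 they were Rnf144b (r = 0.999), Rflnb (r = 0.997) and Zfp526 (r = 0.995), with log2 fold changes of -0.26, -0.60 and -0.34. For Gjc1 they were Btg1 (r = 0.993), Csf2 (r = 0.992) and Relb (r = 0.992), with log2 fold changes of 0.27, 0.82 and 0.29. None of these 6 genes passed the adjusted p, with values of 0.133 to 0.35 from edgeR's test. Panx1 was most like RT1-A1, Dnajb5 and Arl15, at r of 0.966 to 0.967, and Gja4 most like LOC103690015, Dmac2 and Dnttip1, at r of 0.967 to 0.981.

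Genes that act with these channels were read from 6 lists. Together they gave 86 tested genes, of which 2 were called, where 0.486% of all genes were called. The adjusted p alone was passed by 8, the 2 called included, with 2 higher and 6 lower in Hcy. That is 9.3%, against 2.34% of all genes tested. DESeq2 passed 14, with 8 higher and 6 lower, so the balance towards lower genes was not held there. Of all genes, 5.09% passed in DESeq2. In the edgeR fit without Veh replicate 3, none of the 6 lists had more higher than lower genes past the adjusted p, as given with each list. Their median log2 fold change was 0.01, and that of all genes was -0.02. By list the median was -0.03 for membrane partners, 0.03 for kinases, -0.05 for turnover, -0.03 for ATP release and sensing, 0.05 for arterial and shear genes and 0.04 for Gja1 transcription factors. The lists were chosen with earlier results of these data known, so their counts are descriptions.

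Among 10 tested partners of connexin 43 at the membrane, 1 passed the adjusted p in edgeR and 1 in DESeq2, against 2.34% and 5.09% of all genes. When Veh replicate 3 was left out, edgeR passed 1 higher and 1 lower, where 6.67% of all genes passed. Ccn3, a secreted matricellular protein also reported to bind the tail of connexin 43, rose from 305 ± 24.1 CPM in Veh to 599 ± 39.6 CPM in Hcy (mean ± SD, 3 libraries each). It had 8234, 8390 and 10750 reads in Hcy replicates 1 to 3 and 5591, 4659 and 4126 in Veh replicates 1 to 3, with no overlap once scaled. Its log2 fold change of 0.97 (standard error 0.08, edgeR adjusted p = 0.000801) lay just under the fold threshold. It stayed past the adjusted p with each library left out, with log2 fold changes of 0.92 to 1.04, on both sides of the fold threshold. The other partners lay closer to 0. Cav1, the coat protein of caveolae, had a log2 fold change of 0.00, and the catenins Ctnnd1 and Ctnnb1 had -0.14 and 0.15 (edgeR adjusted p = 0.988, 0.598 and 0.438).

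Of 14 tested kinases known to phosphorylate connexin 43, 0 passed the adjusted p in edgeR, 4 reached an unadjusted p of 0.05 or less, and DESeq2 passed 1, where the shares of all genes were 2.34%, 13.4% and 5.09%. Without Veh replicate 3, edgeR passed 1 higher and 1 lower, where 6.67% of all genes passed. Src, a kinase known to close connexin 43 channels, was at 274 ± 13.3 CPM in Hcy and 321 ± 2.39 CPM in Veh (mean ± SD, 3 libraries each, log2 fold change -0.23, edgeR adjusted p = 0.144). Akt1 and Mapk3 had log2 fold changes of 0.10 and 0.17. The kinase that DESeq2 passed was the cell cycle kinase Cdk1, at 38.9 ± 3.64 CPM in Hcy and 25.5 ± 4.56 CPM in Veh (mean ± SD, 3 libraries each, log2 fold change 0.61, edgeR adjusted p = 0.0547, DESeq2 adjusted p = 0.00181). Of 13 genes of connexin trafficking and turnover, 0 passed the adjusted p in edgeR, 2 reached an unadjusted p of 0.05 or less, close to the 13.4% of all genes, and DESeq2 passed 0. Without Veh replicate 3, edgeR passed 1 of them, lower in Hcy, where 6.67% of all genes passed. The 3 with the most CPM over all libraries, not divided by length, were the ubiquitin ligase Nedd4, the autophagy receptor Sqstm1 and the ubiquitin ligase Smurf2, with log2 fold changes of 0.07, -0.09 and -0.24.

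Pannexin 1 acts with receptors and enzymes for extracellular ATP. Of 18 such genes tested, 2 were called, both lower in Hcy, where 0.486% of all genes were called and 0.233% were called lower. In this list 4 genes reached an unadjusted p of 0.05 or less, against 13.4% of all genes. The 2 called were also the 2 past the adjusted p alone, against 2.34% of all genes. DESeq2, with its shares of 0.782% and 5.09% over all genes, called 1 and passed 3. With Veh replicate 3 left out, edgeR passed 2 higher and 4 lower, where 6.67% of all genes passed. P2rx5, an ATP-gated ion channel, had 65, 80 and 53 reads in Hcy and 165, 149 and 126 in Veh (log2 fold change -1.09, edgeR adjusted p = 0.0283). P2rx7, a channel that opens at high ATP and can act together with pannexin 1, had 3, 2 and 2 reads in Hcy and 21, 15 and 9 in Veh (edgeR adjusted p = 0.0443), so its Hcy libraries were all at or under the floor. DESeq2 gave P2rx7 no adjusted p. P2rx5 and P2rx7 each kept an adjusted p of at most 0.05 only without Veh replicate 3, at 0.0128 and 0.0178, and in the 5 other such fits it was 0.0516 to 0.108 for P2rx5 and 0.126 to 0.197 for P2rx7.

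Arterial identity and flow are known to act on connexin 37 and connexin 40, and of 20 genes of these programs 4 passed the adjusted p in edgeR and 8 in DESeq2, 4 of these higher and 4 lower in Hcy, with 11 at an unadjusted p of 0.05 or less. The share over all genes was 2.34% in edgeR, 5.09% in DESeq2 and 13.4% at the unadjusted p. In the fit without Veh replicate 3, edgeR passed 4 higher and 5 lower, where 6.67% of all genes passed. The shear-induced transcription factors Klf4 and Klf2 fell. Klf4 went from 37.3 ± 1.15 CPM in Veh to 19.2 ± 2.56 CPM in Hcy (mean ± SD, 3 libraries each, log2 fold change -0.95, edgeR adjusted p = 0.00415). It passed the adjusted p with each library left out, with log2 fold changes of -1.05 to -0.86, on both sides of the fold threshold. Klf2 fell by 0.52 and Jag1, a Notch ligand, by 0.44 on the log2 scale, with adjusted p of 0.0129 and 0.0418 from edgeR's test. Cxcr4, a chemokine receptor of growing arterial vessels, rose by 0.64 on the same scale (edgeR adjusted p = 0.012). Of the 20 genes, 6 were higher and 5 lower in Hcy without overlap, and the rest overlapped. Over all genes these shares were 10.8% and 9.27%. Among the 6 were the arterial genes Dll4, Efnb2, Sox17 and Notch4, with log2 fold changes of 0.50, 0.39, 0.29 and 0.28. These did not pass in edgeR (adjusted p of 0.0597 to 0.167), while DESeq2 passed all but Notch4. Eng and Acvrl1, co-receptor and receptor of the BMP pathway, were lower in all Hcy libraries, with log2 fold changes of -0.27 and -0.15 (edgeR adjusted p = 0.116 and 0.441), and DESeq2 passed Eng. Without 1 library, Klf2 did not pass in 4 fits, Cxcr4 in 4 and Jag1 in 5, with adjusted p up to 0.0825, 0.0807 and 0.203. Of 11 transcription factors known to act on Gja1, 1 passed in edgeR and 1 in DESeq2, with 3 at an unadjusted p of 0.05 or less. Over all genes these shares were 2.34%, 5.09% and 13.4%. With Veh replicate 3 left out, edgeR passed 2, both lower in Hcy, where 6.67% of all genes passed. Fosl1, an AP-1 subunit, fell from 96.9 ± 5.48 CPM in Veh to 74.6 ± 2.11 CPM in Hcy (mean ± SD, 3 libraries each, log2 fold change -0.38, edgeR adjusted p = 0.0364). Fosl1 kept this only without Veh replicate 3, and the adjusted p without any other library was 0.087 to 0.183. Jun, another AP-1 subunit, was at 221 and 260 CPM in Hcy and Veh, with a log2 fold change of -0.24 (edgeR adjusted p = 0.173). The other AP-1 subunits Fos, Junb and Jund had log2 fold changes of 0.55, 0.04 and -0.03 and overlapped between the groups. Egr1, an immediate early factor, was higher in all Hcy libraries with 0.63 (edgeR adjusted p = 0.234). Whether any of these factors bore on the Gja1 level, or on its AP-1 letters printed above, was not tested.

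**Figure D5:**
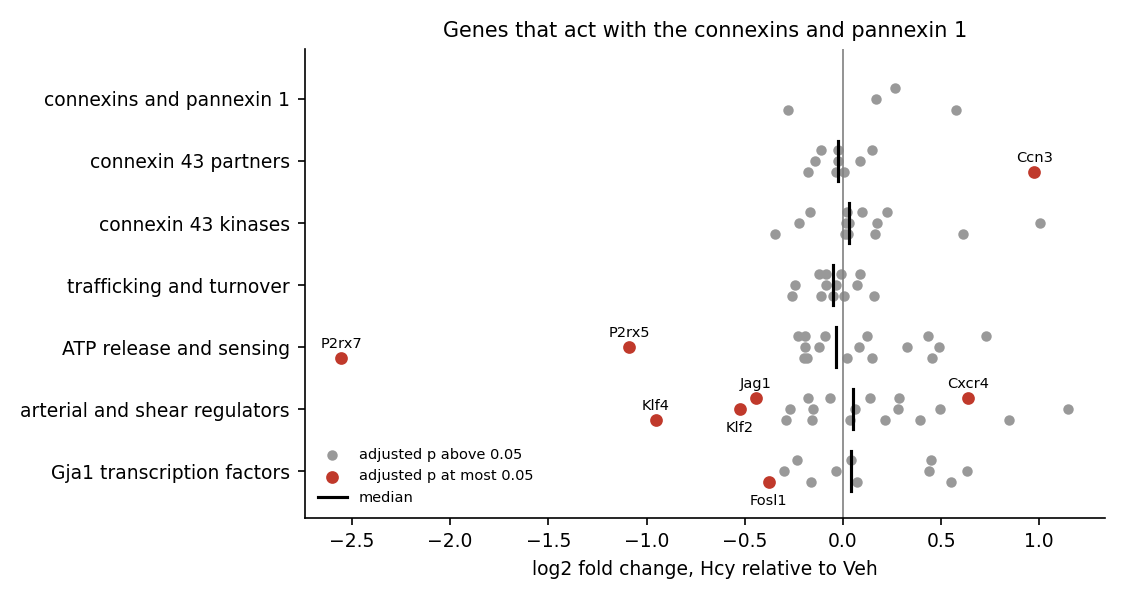
Log2 fold change of Hcy relative to Veh for each tested gene, by list, with genes past an adjusted p of 0.05 in red and named, and the list median as a bar (none for the connexins and pannexin 1). Of the red genes, Ccn3 and Cxcr4 lie to the right and 6 to the left, and the fitted value of P2rx7 rests on 7 reads in Hcy.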

How the data were processed

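Deposited were the authors' raw read counts for each gene, with positions and lengths, and a table of their own DESeq2 comparison (normalized values, fold changes and p-values), which was not used. The submitters' processing notes name fastp, HISAT2 2.2.1, StringTie 2.2.3, Cufflinks, featureCounts 2.0.6, DESeq2 1.42.0 and mRatBN7.2. The table itself names no build, and its position for Cacna1c does not overlap the intervals in the study's methods, so its positions are printed without a build. Libraries were poly(A) selected, and whether counting used the strand is not given in the sources used here.

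The tools were edgeR 4.0.16, DESeq2 1.42.0 and limma 3.58.1, run in R 4.3.3. A sum of 10 counts or more was required, and genes were tested with edgeR's quasi-likelihood test on TMM-scaled counts, with group as the only term, and p-values were adjusted over all 14603 genes by the Benjamini-Hochberg method. Fold changes used edgeR's prior count of 0.125. Intervals come from the same fit. Shares of connexins were compared with exact permutation tests. The genes and lists were chosen with earlier results of these data known. Named were all 5 genes, every list gene past the adjusted p, genes of a list with the highest mean CPM and the 3 genes most like each tested gene. Gjb2, Gjb6, Cdk1, Dll4, Efnb2, Sox17, Notch4, Acvrl1, Fos, Junb and single cell type markers were named after their values were seen. Cttn had 2 rows and was left out, and some listed genes were not analysed here. Tests were tried on simulated counts first. Alternatives were DESeq2, other scalings and filters, protein-coding genes only, a prior count of 2, other thresholds, a replicate block, shares without gene length and leaving out each library. Promoters come from RefSeq, GRCr8.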

Additional observations from a re-analysis of the deposited data

How the results depend on the processing

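Over 14 alternatives each, Gja1 kept a negative and Gjc1, Panx1 and Gja4 a positive log2 fold change, and none of the 4 was called in any of them. With DESeq2, 1 of the 4, Gjc1, passed the adjusted p alone. With each library left out in turn, 0 to 1 passed it, the 1 being Gja1 without Veh replicate 3. Over all genes, 71 were called in edgeR, 109 with genes of at least 1 count tested, 341 without a fold threshold, 374 with the unadjusted p, and 39 to 112 with each library left out, the highest without Veh replicate 3. The adjusted p alone was passed by 341 genes in edgeR, 612 in DESeq2 and 80 to 957 with each library left out, the lowest without Hcy replicate 1 and the highest without Veh replicate 3. In the lists, markers included, 3 genes were called, and 1 to 3 with each library left out. Replicate numbers run from 1 to 3 in both groups, but same-numbered libraries had correlations of deviations of 0.0237, 0.166 and 0.0581 across genes, so the numbers are not shown to pair them. In the fit with a replicate block, 82 genes were called, Gja1 had an adjusted p of 0.194 and Gjc1 of 0.102, and Fosl1 and P2rx7 missed the threshold at 0.0733 and 0.0712. Gja4 and Gja5 rest on 197 and 5 reads in all, and no alternative was run for Gja5.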
